A study of Mus musculus with 4 samples.

Results

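Irf2bp2, the gene of interferon regulatory factor 2-binding protein 2, is 1 of the 32285 genes in the expression libraries of this series and was followed here across the immune cells of the mouse peritoneal cavity. It was taken by its symbol, which occurs in 1 row of the files, with the identifier ENSMUSG00000051495. The gene was chosen because its level differed between the 2 genotypes in an earlier pass over the same libraries, so its levels and ratios are a description and carry no test. Cells were obtained by peritoneal lavage and sorted for CD45, the surface protein of all white blood cells. They came from knockout (KO) mice and from wild-type (WT) mice, and both groups were switched at 4 weeks of age to a high-fat diet that lasted 3 months. Each genotype was represented by 1 droplet expression library and 1 B-cell receptor (BCR) library. The number of mice behind a library, their strain and the cells in which the knockout acts are not given in the sources used here, and no group on a normal diet was analysed here.

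IRF2BP2 is a nuclear protein that binds the repressor IRF2 and lowers transcription at the genes IRF2 occupies. It has also been described as a repressor of NFAT-driven cytokine genes in T cells, as a partner of the ETO2 and NCOR1 repressor complex in blood cells, and as a partner of VGLL4 and TEAD4. In macrophages it is known to restrain inflammatory activation and to sustain Klf2, a transcription factor that opposes such activation.

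Unique molecular identifiers (UMIs, each a counted transcript) numbered 103953298 over 22516 barcodes in the KO expression library and 81817635 over 10087 barcodes in the WT one. Median UMIs per barcode were 3298 in KO and 6362 in WT, so depth and genotype went together. After filtering, 18465 KO and 9224 WT barcodes were kept, and each was placed in at most 1 of 5 classes by UMIs of Cd79a (B), Cd3e (T), Ncr1 (NK), Csf1r (macrophage) or Cd209a (dendritic). The B class held 12495 KO and 6257 WT barcodes, T 2735 and 1688, NK 394 and 302, macrophage 262 and 69, and dendritic 217 and 56. In no class were 2362 KO and 852 WT barcodes, where Irf2bp2 made up 114 and 288 of every 1000000 UMIs. The 2 libraries shared 293 barcode sequences, 1.30% of the KO and 2.90% of the WT barcodes. With 1 library per genotype the difference between genotypes and the difference between libraries cannot be told apart. All intervals below are 95% intervals that cover counting error only.

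The gates were checked against lists of markers, each of which holds the gating gene of its class. The 6 B markers summed to 8417 CPM (UMIs per 1000000 UMIs of the class) in KO and 7556 CPM in WT B barcodes, the 6 T markers to 3824 and 3568 CPM in T barcodes, and the 6 NK markers to 5763 and 6238 CPM in NK barcodes. Macrophage markers summed to 44749 and 45660 CPM in their gate, and dendritic markers to 23335 and 22394 CPM in theirs. Part of each sum was the gating gene, with Cd79a at 4401 and 3789 CPM, Cd3e at 1119 and 943 and Ncr1 at 1025 and 1232. Csf1r gave 544 and 497 CPM and Cd209a 1597 and 1765. Lyz2 alone gave 37059 and 39364 CPM in macrophage barcodes. H2-Aa, an MHC class II gene, gave 20844 and 19894 CPM in dendritic barcodes, and also 5735 and 5024 CPM in B barcodes. Apart from the gating gene, which cannot be at 0 in its own gate, none of the markers of a class was at 0 there in either library. B transcripts outside the B gate were higher in the KO library, with summed B markers of 207 against 49.96 CPM in T barcodes and 161 against 22.1 CPM in macrophage barcodes. Cd79b, a B-cell receptor subunit not used for gating, stood in T barcodes at 2.77% of its B-cell level in KO and at 1.02% in WT. Irf2bp2 at the same share of its own B-cell level is 3.37 CPM in KO and 3.62 CPM in WT T barcodes. In the other 3 classes that value was between 2.25 and 3.54 CPM, so it was small beside every Irf2bp2 level given below.

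Irf2bp2 was lower in the KO library than in the WT library in all 5 classes. In B barcodes it had 6605 UMIs, 121 CPM (118 to 124), in KO and 18837 UMIs, 356 CPM (351 to 362), in WT. The KO/WT ratio was 0.340 (0.331 to 0.350). In T barcodes it had 515 UMIs, 70.0 CPM (64.1 to 76.3), in KO and 1509 UMIs, 191 CPM (181 to 201), in WT, a ratio of 0.367 (0.331 to 0.406). The 2 lymphocyte classes with most barcodes thus had close ratios, although the WT level in T barcodes was well under that in B barcodes.

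NK barcodes, from cytotoxic innate lymphocytes, had the lowest WT level. They held 57 UMIs, 66.2 CPM (50.1 to 85.7), in KO and 114 UMIs, 103 CPM (85.4 to 124), in WT, a ratio of 0.640 (0.457 to 0.886). Macrophage barcodes had 278 UMIs, 188 CPM (166 to 211), in KO and 200 UMIs, 295 CPM (256 to 339), in WT, a ratio of 0.636 (0.528 to 0.766). In both classes the levels of the libraries lay closer together than in B and T barcodes. With each barcode thinned to 1500 UMIs the macrophage ratio was 0.791 (0.493 to 1.31) and the NK ratio 0.723 (0.438 to 1.18), and both intervals hold 1.

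Dendritic barcodes had 140 UMIs, 112 CPM (94.4 to 132), in KO and 187 UMIs, 336 CPM (289 to 388), in WT, a ratio of 0.334 (0.266 to 0.418). Macrophage transcripts differed between the dendritic gates as well: the 9 macrophage markers summed to 4554 CPM in KO and 7145 CPM in WT, with Lyz2, a lysozyme, at 3581 and 6125 CPM and Adgre1, the F4/80 antigen, at 32.9 and 75.4 CPM. Csf1r, Fcgr1 and Ccr2 ran the other way. In KO 1 of the 9, Gata6, was at 0, and in WT none. Their part in the ratio was not tested. This ratio leaned on a few WT barcodes. Of the 56 WT barcodes, 8 had UMIs of Irf8, an interferon regulatory factor that was also counted in B and NK barcodes. These 8 held 78 of the 187 Irf2bp2 UMIs at 1142 CPM. They also had Siglech, a lectin known from plasmacytoid dendritic cells, at 2401 CPM. In KO, 10 dendritic barcodes had an Irf8 UMI, with Irf2bp2 at 135 CPM and no Siglech UMI. Without the Irf8 barcodes of both libraries, which left Lyz2 at 3363 CPM in KO and 6190 CPM in WT, an alternative chosen after seeing the data, Irf2bp2 stood at 111 CPM in KO and 223 CPM in WT, a ratio of 0.497 (0.383 to 0.647).

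**Figure D1:**
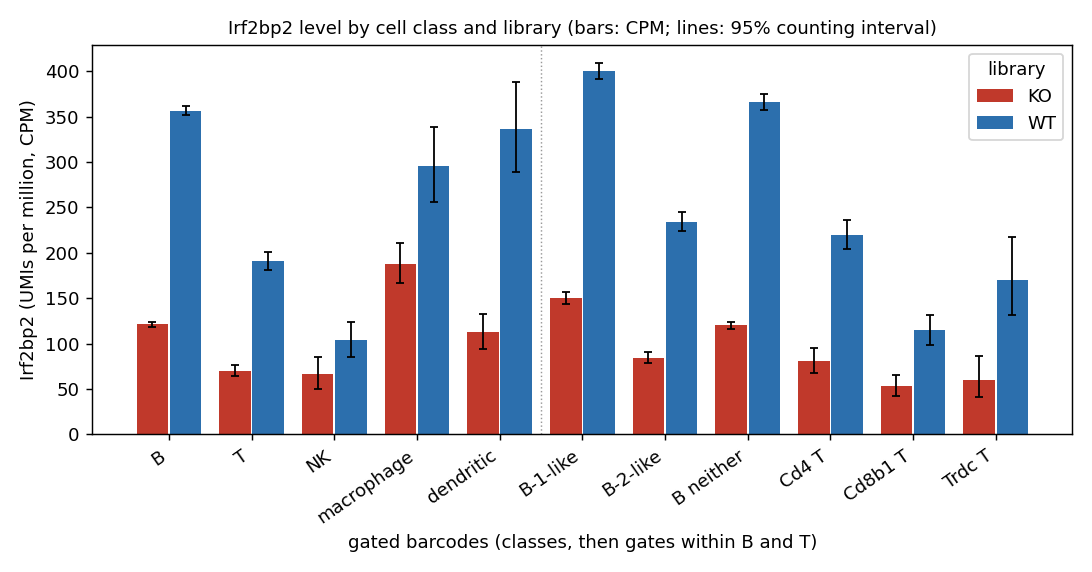
Irf2bp2 level in CPM (vertical axis) for the 5 classes and for gates within B and T barcodes, with KO bars left of WT bars and 95% counting intervals as lines. KO was below WT in every pair, from 121 against 356 CPM in B barcodes to 66.2 against 103 CPM in NK barcodes, and the intervals of the NK levels overlapped slightly.

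The order of the classes differed between the libraries. In KO, macrophage barcodes stood highest, 1.55 times (1.37 to 1.74) above B barcodes. B and dendritic barcodes followed, with a quotient of 1.08 (0.914 to 1.29) that holds 1, and T and NK barcodes came last with a quotient of 1.06 (0.803 to 1.42). In WT, B, dendritic and macrophage barcodes formed the upper group, and the quotients between neighbours, 1.06 (0.919 to 1.23) and 1.14 (0.927 to 1.40), hold 1. T barcodes stood below macrophage barcodes by a factor of 1.55 (1.33 to 1.79) and above NK barcodes by a factor of 1.84 (1.52 to 2.25). T and NK barcodes were thus apart in WT, while their quotient in KO holds 1.

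The ratio of B barcodes divided by that of NK barcodes was 0.532 (0.387 to 0.732), and by that of macrophage barcodes 0.536 (0.446 to 0.644). T barcodes gave 0.574 (0.411 to 0.8004) and 0.577 (0.469 to 0.710) against the same 2 classes. Neither pair of intervals reaches 1, whereas that of B over T, 0.928 (0.836 to 1.03), and that of NK over macrophage, 1.01 (0.698 to 1.45), hold it. These intervals use a normal approximation on the log scale and leave out any spread between mice. The depth gap also differed between classes: the median of UMIs per barcode was 3282 in KO against 6976 in WT B barcodes, 2333 in KO against 4396 in WT T barcodes and 1962 in KO against 3325 in WT NK barcodes. It was 5137 in KO against 9411 in WT macrophage barcodes and 5271 in KO against 9616 in WT dendritic barcodes. Barcodes were therefore also binned on their UMIs, and the ratios were taken within the bins.

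In B barcodes with 500 to 2000 UMIs, Irf2bp2 was at 85.4 CPM in KO and 261 CPM in WT. Between 2000 and 4000 UMIs it was at 96.4 and 196 CPM, between 4000 and 8000 at 125 and 332 CPM, and above 8000 at 145 and 384 CPM. KO was lower in all 4 bins, with ratios of 0.327, 0.492, 0.377 and 0.379 from the shallowest bin to the deepest. In T barcodes the 4 ratios were 0.482, 0.284, 0.396 and 0.580, from bins whose smallest held 25 KO barcodes. In B barcodes the ratios of the bins above 2000 UMIs lay nearer 1 than the 0.340 of the whole class. The T ratios lay nearer 1 than the 0.367 of the whole class in all bins but that of 2000 to 4000 UMIs. In B barcodes the KO level also rose from bin to bin, and KO barcodes were the shallower ones. The part of depth in the class ratios was not tested. KO was lower in every depth bin of both classes. The other 3 classes did not give so even a picture. NK bins gave ratios of 0.937 (0.283 to 4.88), 0.420 (0.260 to 0.660) and 0.977 (0.364 to 2.25) up to 8000 UMIs, so only the middle bin lay clearly below 1. Macrophage bins gave ratios of 1.04, 0.818, 0.719 and 0.513, of which the intervals of all but the deepest bin hold 1, and WT had as few as 4 barcodes in a bin. Dendritic bins from 2000 UMIs gave 0.866 (0.138 to 35.97), with 2 WT barcodes, then 0.150 (0.0977 to 0.232) and 0.445 (0.329 to 0.596).

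The share of barcodes with at least 1 Irf2bp2 UMI was lower in KO than in WT in every class. In B barcodes it was 32.7% (31.9 to 33.5) in KO and 74.7% (73.6 to 75.7) in WT, and after thinning to 1500 UMIs 14.7% (14.0 to 15.3) and 36.1% (34.9 to 37.3), with 1506 KO and 136 WT barcodes left out as too shallow. In T barcodes the thinned shares were 9.47% (8.27 to 10.8) and 24.9% (22.8 to 27.1), against unthinned shares of 15.7% and 50.7%, with 559 and 66 barcodes left out. In NK barcodes the thinned shares, 10.0% (6.77 to 14.2) and 12.5% (8.88 to 16.8), overlapped widely. The intervals of the thinned shares also overlapped in macrophage barcodes, at 24.8% (19.6 to 30.6) and 31.3% (20.6 to 43.8), and in dendritic barcodes, at 18.4% (13.3 to 24.3) and 32.7% (20.7 to 46.7).

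The lower KO level was spread over many barcodes and did not rest on a few WT barcodes in the B class. The 1% of B barcodes with most Irf2bp2 UMIs held 10.7% of them in KO and 6.02% in WT, and the highest barcode had 10 and 29 UMIs. After thinning to 3000 UMIs, WT B barcodes had a median of 1 and a 99th percentile of 5 UMIs, and KO B barcodes a median of 0 and a 99th percentile of 2. The variance divided by the mean, which is 1 for counting error alone, was 1.08 in KO and 1.30 in WT B barcodes. In T barcodes it was 1.04 and 1.31, in NK barcodes 1.05 and 0.9998, in macrophage barcodes 1.27 and 0.803, and in dendritic barcodes 0.9998 and 2.37. Dendritic WT barcodes thus had the widest spread: 51.9% of them had no Irf2bp2 UMI at this depth, against 32.3% for a Poisson distribution of the same mean. That gate held the 8 barcodes with Irf8 UMIs, at 1142 CPM of Irf2bp2 against 223 CPM in its other barcodes. The spread without those 8 was not measured.

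**Figure D2:**
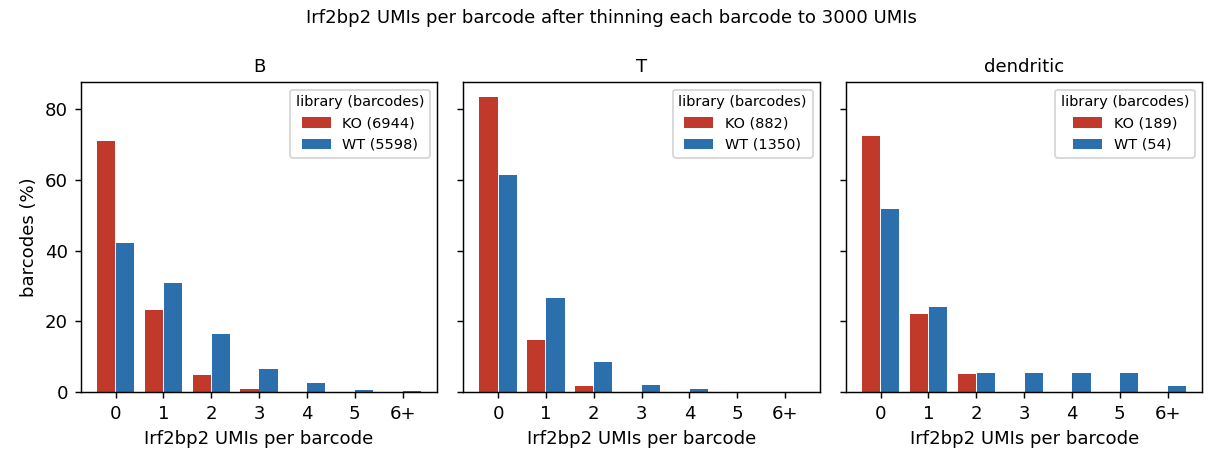
Share of barcodes (vertical axis, %) with 0 to 5 or at least 6 Irf2bp2 UMIs after each barcode was thinned to 3000 UMIs, for B, T and dendritic barcodes, with KO bars left of WT bars and the number of barcodes in the legend. The whole KO distribution of B barcodes lay lower, with 71.0% at 0 UMIs against 42.2% in WT, while dendritic WT barcodes had a tail of 3 and more UMIs that no KO dendritic barcode reached. The WT dendritic gate held 8 barcodes with Irf8 UMIs, and the tail was not measured without them.

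Within the B class, barcodes were divided by Bhlhe41, a transcription factor of the B-1 cells that renew themselves in body cavities, and by Fcer2a, the low-affinity IgE receptor CD23 of conventional B-2 cells. B-1-like barcodes (1735 in KO, 1622 in WT) stood at 149.9 CPM in KO and 399.8 CPM in WT, a KO/WT quotient of 0.375 (0.356 to 0.394). The B-2-like barcodes (2831 and 1527) stood at 84.6 and 234 CPM, a ratio of 0.362 (0.333 to 0.392). The B barcodes with neither transcript (7657 and 2758, median depth 3076 and 6458 UMIs) stood at 120.2 and 366 CPM, a ratio of 0.328 (0.315 to 0.342). B-1-like exceeded B-2-like barcodes by 1.77 times (1.63 to 1.92) in KO and 1.71 times (1.63 to 1.80) in WT. B-1-like barcodes were also deeper, with a median of 6017 UMIs in KO and 10151 in WT. The median of B-2-like barcodes was 2732 UMIs in KO and 4161 in WT. The part of depth in that excess was not tested. In both kinds of B cell Irf2bp2 was thus lower in KO by nearly the same factor. Dividing cells gave the same picture: B barcodes with a UMI of Mki67, a proliferation antigen, stood at 104 CPM in KO (145 barcodes) and 345 CPM in WT (103 barcodes).

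T barcodes with Cd4, the co-receptor of helper T cells, stood at 80.5 CPM in KO (626 barcodes) and 219.6 CPM in WT (677 barcodes), a ratio of 0.367 (0.305 to 0.439). Those with Cd8b1, a co-receptor chain of cytotoxic T cells, stood at 52.8 CPM (491) and 114 CPM (324), a ratio of 0.461 (0.352 to 0.5998). Those with Trdc, the constant gene of the delta T-cell receptor chain, stood at 60.4 CPM (146) and 170.5 CPM (64), a ratio of 0.354 (0.222 to 0.555). The Cd4 level exceeded the Cd8b1 level by 1.53 times (1.16 to 2.02) in KO and 1.92 times (1.63 to 2.26) in WT, and the quotients of the KO/WT ratios between the 3 sets, from 0.796 (0.582 to 1.09) for Cd4 over Cd8b1 to 1.30 (0.785 to 2.15) for Cd8b1 over Trdc, all hold 1.

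Macrophage barcodes were divided, after their values were seen, by Gata6 and Icam2, markers of resident large peritoneal macrophages, and by Ccr2, the chemokine receptor of monocyte-derived cells. Those with Gata6 or Icam2 and without Ccr2 stood at 187 CPM in KO (74 barcodes) and 375 CPM in WT (18 barcodes), a ratio of 0.499 (0.366 to 0.681). Those with Ccr2 alone stood at 195 CPM (147 barcodes) and 258 CPM (37 barcodes), a ratio of 0.757 (0.579 to 0.995). The first ratio divided by the second was 0.659 (0.444 to 0.980), again with a normal approximation on the log scale, an interval that ends just short of 1. These sets were chosen after the values were seen, and the first had 18 WT barcodes with a median of 13317 UMIs, against 5706 in its KO barcodes.

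**Figure D3:**
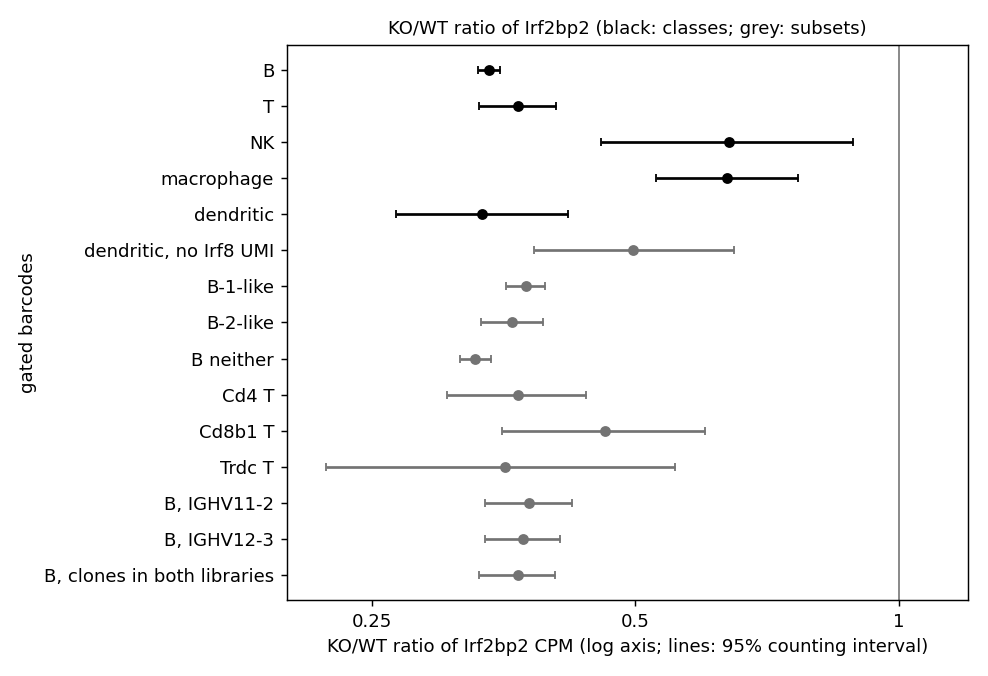
KO/WT ratio of Irf2bp2 CPM on a log axis for the 5 classes (black) and for subsets within them (grey), with 95% counting intervals as lines and a vertical line at 1. Every ratio lay below 1, the B and T classes at 0.340 and 0.367, NK and macrophage barcodes further right at 0.640 and 0.636, and dendritic barcodes moved to 0.497 without those that had an Irf8 UMI.

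The BCR libraries allowed KO and WT cells with the same receptor to be compared. A clone was defined by identical V and J genes and identical nucleotide sequence of the third complementarity-determining region (CDR3) in both chains, and 9893 KO and 5030 WT barcodes of the B class had both chains. In all, 87 clones occurred in both libraries, and none of the 71 barcode sequences with paired chains in both libraries carried the same clone. The CDR3 sequences of the 4 clones with most barcodes in the library where they had fewer are shown because they define these matched cells. Capitals mark the first codon, for the conserved cysteine, and the last codon, for the conserved tryptophan or phenylalanine. The heavy-chain V genes lie on chromosome 12 and the light-chain V genes on chromosome 6, and the sequences are those of the deposited contigs, 5′ to 3′.
shared clone 1, heavy, IGHV11-2: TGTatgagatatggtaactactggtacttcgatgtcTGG
shared clone 1, light, IGKV14-126: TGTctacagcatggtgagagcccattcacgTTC
shared clone 2, heavy, IGHV11-2: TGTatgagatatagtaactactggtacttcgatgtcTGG
shared clone 2, light, IGKV14-126: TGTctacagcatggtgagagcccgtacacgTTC
shared clone 3, heavy, IGHV11-2: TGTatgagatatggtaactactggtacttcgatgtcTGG
shared clone 3, light, IGKV14-126: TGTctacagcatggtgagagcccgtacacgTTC
shared clone 4, heavy, IGHV12-3: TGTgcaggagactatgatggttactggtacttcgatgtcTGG
shared clone 4, light, IGKV4-91: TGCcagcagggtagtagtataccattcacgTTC

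IGHV11-2 and IGHV12-3 are known from recurrent B-1 receptors that bind phosphatidylcholine, so the same rearrangement is found in different mice. In clone 1, Irf2bp2 stood at 140.5 CPM in KO (84 barcodes) and 419.8 CPM in WT (81 barcodes), a ratio of 0.335 (0.257 to 0.430). In clone 2 it stood at 158 CPM (81) and 413 CPM (120), a ratio of 0.383 (0.291 to 0.496). In clone 3, whose heavy CDR3 is that of clone 1 and whose light CDR3 is that of clone 2, it stood at 196 CPM (79) and 419 CPM (75), a ratio of 0.469 (0.363 to 0.599). In clone 4 it stood at 129.9 CPM (47) and 331 CPM (17), a ratio of 0.392 (0.2495 to 0.607). The intervals of the levels did not meet in any of the 4 clones. Of the 87 shared clones, 14 had at least 5 barcodes in both libraries, and KO was lower in all 14, with ratios from 0.127 to 0.583 and a median of 0.364.

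Over all shared clones, Irf2bp2 stood at 151 CPM in KO (632 barcodes) and 413 CPM in WT (520 barcodes), a ratio of 0.367 (0.332 to 0.405). All B barcodes with IGHV11-2 gave 0.378 (0.336 to 0.424), and those with IGHV12-3 gave 0.372 (0.337 to 0.410). By heavy-chain isotype, the ratio was 0.324 (0.312 to 0.336) for IGHM, 0.446 (0.305 to 0.648) for IGHD and 0.265 (0.134 to 0.484) for IGHG3. Clones of 1 barcode gave 0.329 (0.313 to 0.346) and larger clones 0.288 (0.273 to 0.303). The lower KO level thus appeared at matched receptor and at matched isotype, and both in clones of 1 barcode and in larger clones. Size was not matched within the larger clones, which held 5812 KO and 1194 WT barcodes.

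**Figure D4:**
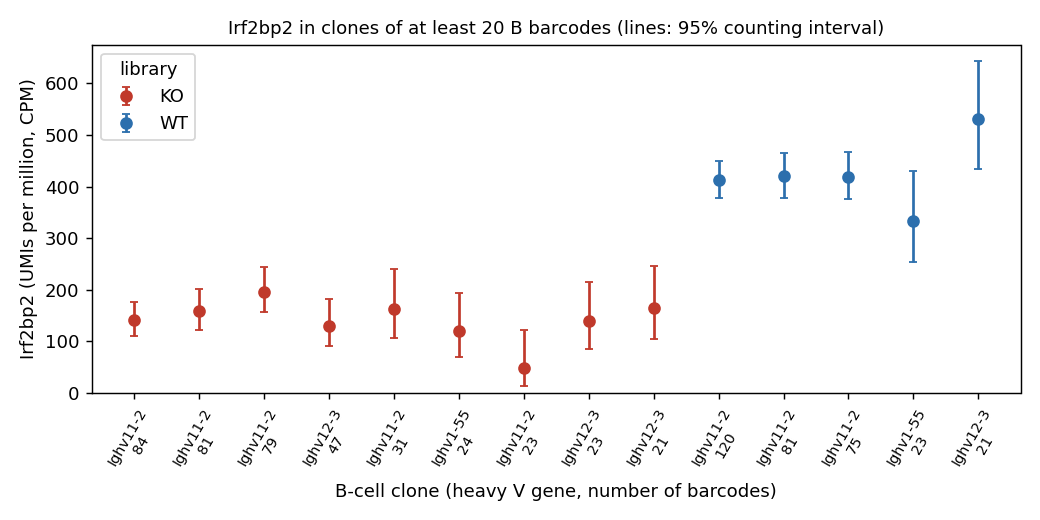
Irf2bp2 level in CPM (vertical axis) in each clone of at least 20 B barcodes, labelled by heavy V gene and number of barcodes, with KO clones left of WT clones and 95% counting intervals as lines. The 9 KO clones lay between 47.4 and 196 CPM with a median of 140.5, all below the 5 WT clones, which lay between 333 and 532 CPM with a median of 419.

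Irf2bp2 was set against all other genes. A gene was called where it reached 50 CPM in either library and its ratio interval lay wholly past a fold of 1.5. In B barcodes 0.435% of genes were called lower in KO and 0.724% higher, and in T barcodes 0.323% and 0.84%. In NK barcodes these shares were 0.115% and 0.344%, in macrophage barcodes 0.723% and 0.723%, and in dendritic barcodes 2.46% and 0.321%. Irf2bp2 was among the genes called lower in B, T and dendritic barcodes and was not called in NK and macrophage barcodes. Since the gene was chosen for this contrast, nothing is read from that count or from the ranks that follow. Among the genes ranked by ratio, it had the lowest ratio of 2507 in B and of 2893 in T barcodes, and it came 64th of 3295 in NK, 76th of 2871 in macrophage and 44th of 2639 in dendritic barcodes. The median log2 ratio of all genes at 10 CPM or more was between 0.00062 and 0.04 in the 5 classes. Both libraries were scaled to the same total, so this median is no outside check of the scaling.

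With the genes left out of rankings set aside, no gene was called lower in all 5 classes. Before they were set aside, 1795 genes reached 50 CPM in all 5. Irf2bp2 was the only gene called lower in B, T and dendritic barcodes together. These are the classes of its own calls and the gene was chosen for this contrast, so nothing is read from that. With the looser rule of an interval wholly below 0.8, 2 genes were lower in all 5, and Irf2bp2 was not among them because its NK interval, 0.457 to 0.886, reaches past that bound. They were Sfr1, which acts in recombinational DNA repair, at ratios from 0.513 in NK to 0.693 in T barcodes, and Tuba1a, an alpha-tubulin, at 0.513 in macrophage to 0.758 in B barcodes. In B, T and dendritic barcodes together the looser rule gave 3 genes, Irf2bp2, Sfr1 and Tuba1a.

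**Figure D5:**
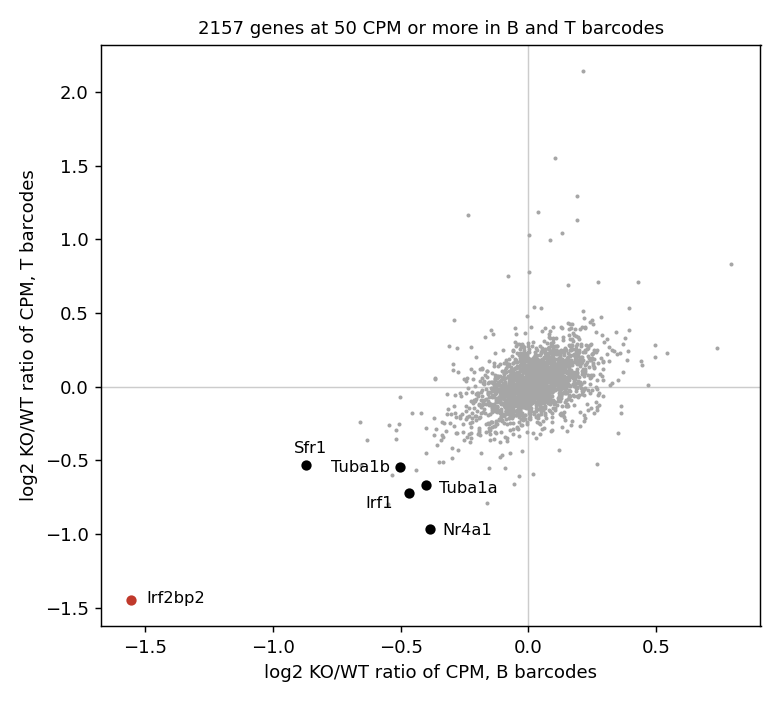
Log2 KO/WT ratio of CPM in B barcodes (horizontal axis) and T barcodes (vertical axis) for 2157 genes at 50 CPM or more in both, without immunoglobulin, T-cell receptor, mitochondrial, ribosomal and predicted genes; both axes share the same 2 libraries. Irf2bp2 (red) lay at -1.55 and -1.45, and the next lowest genes were Sfr1 at a ratio of 0.548 in B and Nr4a1 at 0.513 in T barcodes. Irf2bp2 was chosen for this contrast, so nothing is read from its place.

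The paralogs of Irf2bp2 had nearly level ratios in B and T barcodes. Irf2bp1, a related IRF2-binding repressor, was at 21.3 CPM in KO and 22.01 CPM in WT B barcodes, a ratio of 0.968 (0.892 to 1.05), and at 30.0 and 27.7 CPM in T barcodes, a ratio of 1.08 (0.896 to 1.31). Irf2bpl, the third family member, was at 31.4 and 27.3 CPM in B barcodes, a ratio of 1.15 (1.07 to 1.23), and at 67.3 and 67.9 CPM in T barcodes, a ratio of 0.991 (0.875 to 1.12). In NK barcodes Irf2bpl was at 89.4 and 111 CPM, a ratio of 0.807 (0.599 to 1.08). Irf2bpl in T and NK barcodes was the only case at 50 CPM, so the call rule could not be met elsewhere, and in these 2 classes it was not called. Their counts were low in macrophage and dendritic barcodes, from 7 to 47 UMIs in either library.

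The genes beside Irf2bp2 on chromosome 8 were examined, taking the order of genes from the RefSeq table of GRCm38.p6. In B barcodes Tomm20, a mitochondrial import receptor and the next gene on one side, stood at 208 CPM in KO and 206 CPM in WT, a ratio of 1.01 (0.985 to 1.04). Of the other neighbours, Tarbp1 had a ratio of 1.17 (0.942 to 1.46), Coa6 1.03 (0.957 to 1.12), Rbm34 1.09 (0.993 to 1.19) and Itgb1, the integrin beta-1 chain, 0.932 (0.906 to 0.959). Map3k21, Kcnk1, Slc35f3, Pard3 and Nrp1 were at or below 0.441 CPM in B barcodes of both libraries. Among the measured neighbours none had a ratio near that of Irf2bp2. Gm26759, annotated on the opposite strand and overlapping Irf2bp2 in GENCODE vM21, stood at 0.808 CPM in KO and 0.814 CPM in WT B barcodes (44 and 43 UMIs). The sources used here do not say how overlapping genes were counted, so reads of the shared stretch cannot be assigned between the pair.

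The partners of IRF2BP2 followed here were Irf2, Nfatc2, Vgll4, Cbfa2t3 (ETO2), Ncor1 and Tead4, and none of the 3 or 4 that reached 50 CPM in a class was called. Irf2 itself stood at 199 CPM in KO and 179.9 CPM in WT B barcodes, a ratio of 1.11 (1.08 to 1.14), and at 148 and 146 CPM in T barcodes, a ratio of 1.01 (0.928 to 1.10). Its lowest ratio was 0.730 (0.595 to 0.896), in dendritic barcodes. Ncor1, a nuclear receptor co-repressor, had ratios between 0.830 in NK and 1.07 in B barcodes. Tead4 had no UMI in any class. The median log2 ratio of the partners at 10 CPM or more was 0.0092 in B barcodes and -0.05 in T barcodes, against 0.03 and 0.02 for all genes.

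Of the reported targets, Klf2, Vegfa, Il2ra, Il2 and Il4, 1 or 2 reached 50 CPM in each class and none was called. Klf2, which keeps lymphocytes quiescent, stood at 3404 CPM in KO and 3298 CPM in WT B barcodes, a ratio of 1.03 (1.03 to 1.04), and at 1948 and 2093 CPM in T barcodes, a ratio of 0.931 (0.910 to 0.952). In macrophage barcodes it stood at 2139 and 1731 CPM, a ratio of 1.24 (1.16 to 1.32), and in dendritic barcodes at 895 and 573 CPM, a ratio of 1.56 (1.38 to 1.78). In NK barcodes Klf2 stood at 2434 and 2759 CPM, a ratio of 0.882 (0.834 to 0.933). Vegfa, a growth factor of blood vessels, reached 50 CPM in NK barcodes alone, at 76.6 and 109 CPM, a ratio of 0.704 (0.513 to 0.958). Il2ra, the alpha chain of the interleukin-2 receptor, stood in T barcodes at 62.3 and 41.9 CPM, a ratio of 1.49 (1.29 to 1.72), and Il2, the cytokine that signals through it, at 19.98 and 14.7 CPM, a ratio of 1.36 (1.06 to 1.75). In NK barcodes Il2ra had 6 and 17 UMIs, a ratio of 0.451 with an interval that holds 1. Il4 was near the limit of counting, with 21 and 16 UMIs in T barcodes.

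Of 3 interferon factors set beside IRF2 (Irf1, Irf8 and Irf9), 1 was called lower in KO macrophage barcodes. Irf1, an activator that competes with IRF2 for the same DNA element, stood there at 55.3 CPM in KO and 168 CPM in WT (82 and 114 UMIs), a ratio of 0.329 (0.245 to 0.441). It was 1 of the 2 members at 50 CPM there, against 0.723% of all genes called lower, and the list median at 10 CPM or more was -0.77 on the log2 scale, against 0.04 for all genes. Irf1 was also lower in B barcodes, at 45.5 and 63.0 CPM with a ratio of 0.723 (0.686 to 0.762), and in T barcodes, at 88.4 and 146 CPM with a ratio of 0.606 (0.550 to 0.668), without passing the call rule. In NK barcodes Irf1 stood at 114 and 118 CPM, a ratio of 0.964 (0.734 to 1.26). Irf8 was called lower in KO dendritic barcodes, at 8.82 CPM in KO and 386 CPM in WT (11 and 215 UMIs), a ratio of 0.0228 (0.0112 to 0.0417). It was 1 of the 2 members at 50 CPM there, against 2.46% of all genes called lower. The 8 WT barcodes described above were picked by their Irf8 UMIs, so they hold all 215 by definition. Irf8 ran the other way in B barcodes, with a ratio of 1.15 (1.12 to 1.19), and in T barcodes, with 1.91 (1.41 to 2.59). Its intervals in NK and macrophage barcodes hold 1. Irf9 had a ratio of 0.821 (0.766 to 0.881) in B and 0.794 (0.652 to 0.966) in T barcodes, and its intervals in the other classes hold 1.

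Short-lived transcripts were followed because handling of cells can move them. All 10 reached 50 CPM in B, T and NK barcodes, and none was called in B or NK barcodes. In T barcodes 2 were called lower, against 0.323% of all genes: Nr4a1, an orphan nuclear receptor switched on by antigen-receptor signals, at 160.4 CPM in KO and 313 CPM in WT, a ratio of 0.513 (0.478 to 0.550), and Jun, an AP-1 subunit, at 245 and 425 CPM, a ratio of 0.577 (0.545 to 0.611). In dendritic barcodes 9 members reached 50 CPM, and Fos, another AP-1 subunit, was called higher, against 0.321% of all genes. It stood at 1565 and 708 CPM, a ratio of 2.21 (1.98 to 2.47). The median log2 ratio of the list was 0.08 in B, -0.17 in T, -0.24 in NK, -0.20 in macrophage and 0.20 in dendritic barcodes. The part of such changes in the Irf2bp2 levels was not tested.

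Other nuclear co-repressors had ratios spread around those of all genes. Of the 17 on the list, which held Bcor, Ctbp1, Hdac1, Sin3a, Tle4 and related genes, 6 reached 50 CPM in B, 8 in T, 11 in NK, 6 in macrophage and 8 in dendritic barcodes, and their calls were 0 in both directions. With 0.115% to 2.46% of all genes called in a direction, depending on the class, nothing is read from the 0 calls here or among the partners and targets above. Their median log2 ratio over members at 10 CPM or more was 0.07 in B and 0.04 in T barcodes, against 0.03 and 0.02 for all genes. The 5 steady genes Actb, B2m, Tmsb4x, Eef1a1 and Ppia had log2 ratios between -0.05 and 0.29 in B barcodes, and none was called in any class.

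Genes that varied with Irf2bp2 from barcode to barcode were looked for in barcodes thinned to 3000 UMIs, 6944 KO and 5598 WT in the B class and 882 and 1350 in the T class. Pearson's r of log-transformed UMIs was weak throughout, and none of the 3121 genes ranked in B barcodes or the 3402 in T barcodes had an absolute r above 0.1 in both libraries. In B barcodes the highest were Plac8, expressed in innate-like B cells, at 0.08 in KO and 0.15 in WT, then Nfil3, Atf3, Ptpn1, Cd9, Gpr137b, Ms4a6c, S100a6, Rassf4 and Tpt1. The lowest were Fcer2a, at -0.08 and -0.18, then Tmsb10, Lrrk2, Ccr7 and Pgap1. In T barcodes Prr13 came highest, at 0.09 in both libraries, followed by Nrbp1, Ubb, Clint1 and Mtpn, and Sh3bp5, Hsp90ab1 and Cd8a came lowest. Barcodes of a class share a library and its depth, and correlations this weak in sparse counts name no partner of Irf2bp2.

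Across the 5 classes of both libraries, 10 points in all, the gene with the level most like that of Irf2bp2 among 4420 was Tuba1b, an alpha-tubulin, with r = 0.92 on log2 CPM. It was followed by Lars2 at 0.80, Gbp3, Tubb2a, Rgs19, Ywhag, Eif4b, Txn2, Ocel1 and Mcl1, down to 0.72. Tuba1b stood at 199 CPM in KO and 281 CPM in WT B barcodes and was lower in KO in all 5 classes. Within a library, over 5 points each, the r of Tuba1b with Irf2bp2 was 0.89 in KO and 0.81 in WT. Rgs19 lay higher in both, at 0.97 in KO and 0.98 in WT. Gbp3, Tubb2a and Ywhag also lay above Tuba1b in KO, and Eif4b, Txn2 and Mcl1 in WT. The first place of Tuba1b thus held over the 10 points and not within either library. The points share 2 libraries, so a gene can rank high through the difference between libraries alone.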

How the data were processed

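The deposited expression files hold raw UMI counts per gene and barcode, per the file headers written by Cell Ranger 6.1.2; per the submitters' processing notes, the version was 6.0.1, with Seurat 4.3.0 and the build mm39, so the version behind the counts is uncertain. The labels name a 3′ kit. The deposited BCR files hold UMI counts per contig with V and J genes and CDR3. The knocked-out gene and some members of the lists are not reported here. Irf2bp2, the gene lists and the markers were chosen with earlier results of these data known.

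Barcodes were kept if they had 200 or more genes and less than 10% of UMIs from mitochondrial genes. Scrublet (scanpy 1.11.5) scored doublets per library. Its automatic threshold marked 0 barcodes and had not worked, so the highest scores were removed at 0.8% per 1000 barcodes: 3863 in KO (17.2%) and 794 in WT (7.87%), ties kept. The B gate needed 3 Cd79a UMIs and none of the other 4 lineage genes. The others needed 1 UMI of their own gene and at most 2 of Cd79a, and excluded one another, except that dendritic barcodes could hold Csf1r. UMIs were summed per class and scaled to CPM. Levels carry exact Poisson, shares exact Clopper-Pearson and ratios exact conditional binomial intervals. PCR duplicates are collapsed by UMI, but barcodes are not replicates, and with 1 library per genotype no test was made. Thinning drew UMIs without replacement (seed 1). The ratio and its interval were checked on simulated data. Genes were named by rule: members of the lists, lineage markers, neighbours, those most like Irf2bp2 and those low in every class. Immunoglobulin, T-cell receptor, mitochondrial, ribosomal, haemoglobin, sex-linked and predicted genes were left out of rankings. Siglech, the Irf8, Mki67 and macrophage subsets were added after the values were seen. Alternatives were tried for gates, filters, doublets, depth, weighting and scaling.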

Additional observations from a re-analysis of the deposited data

How the results depend on the processing

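The KO/WT ratio of Irf2bp2 was below 1 in all 49 values recomputed over the 5 classes, which ranged from 0.282 to 0.791, and 43 of them lay within the counting interval of the reported ratio. Not all 49 could move: barring Cd79a UMIs outside the B gate leaves the B ratio at 0.340 by construction. A mitochondrial limit of 20% returned the same ratios in NK, 0.640, and dendritic barcodes, 0.334. In B barcodes the ratio moved to 0.325 without the 1% of barcodes with most Irf2bp2 UMIs, to 0.325 with 1 barcode per clone (6428 in KO, 4135 in WT) and to 0.370 with B-1-like and B-2-like barcodes weighted alike. Thinning to 1500 UMIs moved it to 0.317 in T and to 0.791 (0.493 to 1.31) in macrophage barcodes, and leaving out dendritic barcodes with an Irf8 UMI, an alternative added after the data were seen, moved it to 0.497. The causes were not tested. Of the 10 genes most like Irf2bp2 across B barcodes, 5 were kept with thinning to 2000 UMIs and 9 with Spearman's rho. The count of genes lower in every class was 0 at a fold of 1.5 and moved to 2 with an interval wholly below 0.8. No paired analysis was possible because each genotype has 1 expression library, and no replicate could be left out. In NK, macrophage and dendritic barcodes between 57 and 278 UMIs of Irf2bp2 stand behind a level, with 69 WT macrophage and 56 WT dendritic barcodes.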

Other observations

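Barcodes with at least 3 UMIs each of Siglech and Irf8 were looked for among all kept barcodes, in a gate or not, after the values were seen. There were 3 in KO and 10 in WT. In the 3 KO barcodes, which also held Cd79a at 3229 CPM, Irf2bp2 stood at 228 CPM (125 to 383). In the 10 WT barcodes, of which 7 lay in the dendritic gate, it stood at 1062 CPM (873 to 1280), with 4 to 14 UMIs in each. This lay above the WT level of each of the 5 classes. With at most 2 Cd79a UMIs, 0 KO and 8 WT barcodes were left, and in those 8 the level was 1332 CPM (1061 to 1651). With doublets not removed, there were 12 KO barcodes at 308 CPM (219 to 422), with Cd79a at 2539 CPM, against the same 10 WT barcodes.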
